A study of Gallus gallus with 12 samples.

Results

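The genes described here are those of the extracellular matrix and its receptors on a chicken expression array. They are the collagens, laminin chains, fibronectin (FN1), tenascin C (TNC), SPARC, syndecans, integrin subunits, matrix metalloproteinases (MMPs) and tissue inhibitors of metalloproteinases (TIMPs). The genes were chosen by their symbols and not by their values, though with earlier results of these data known. The study that made the arrays had already listed ITGA8 and SDC1 as changed. Of the 4814 genes that could be named on the array, 43 belonged to this set, from 102 symbols of the reference annotation that fit the rule. FN1, TNC, COL1A1 and all laminin chains besides LAMB2 were among the symbols without a named probe and were not analysed here.

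The extracellular matrix is the meshwork of secreted proteins around cells. Collagens form its fibrils and, with laminins, the sheet-like basement membranes that in brain lie mainly around blood vessels and at the pial surface. Integrins, each a pair of an alpha and a beta subunit, and syndecans, which carry heparan sulfate chains, link the matrix to the cell. MMPs cut matrix proteins, and TIMPs inhibit the MMPs.

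The study compared hypothalamus of commercial female broilers of related families, 56 d of age, with 4 birds in each of 3 groups and an array for each bird. Control birds (CL) stayed at 25°C, heat-stressed birds (HS) were held at 34°C for 24 h, and temperature-recovery birds (TR) had 34°C for 24 h and then 24 h at 25°C. By the methods, HS birds were sampled when the heat ended and TR and CL birds 24 h later, so that heat and sampling day cannot be told apart in either HS comparison, and the meninges were removed during dissection. The deposited sample records name hypothalamus and the group in their titles but give spleen as the tissue and male as the sex, against the study's methods. Those records also state a Marek's disease virus infection status that follows the groups (susceptible for HS, resistant for TR and not infected for CL) and days after infection of 46 to 55 for HS, 55 to 56 for TR and 40 to 56 for CL. Groups were taken from the titles, and if those fields held for these birds, infection status and heat could not be told apart.

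RNA was labelled with a single dye (cyanine 3), and values are log2 of the background-subtracted spot signal, quantile-normalized between arrays, so that a difference of 1 is a 2-fold difference. An array is named by its group and its replicate number (HS1 to CL4). The spots above background numbered 33505 to 36852 on an array, the median signal over local background was 11.8 to 17.3, and arrays of a group correlated at r between 0.968 and 0.989 over the probes. The 3 groups lay on 3 slides, 1 for each, and slide and group therefore cannot be told apart. The CL slide was scanned on another day than the others. Of the hypothalamic neuropeptide genes listed as markers, 9 of 15 had a probe, of which 5 were above background on all 12 arrays, 8 on at least 1 and CRH on none. The lymphoid and spleen markers gave the same counts, with 9 of 17 having a probe, 5 above background on all 12 arrays, 8 on at least 1 and RAG1 on none, so that these counts do not tell the labelled tissues apart. The summed neuropeptide signal was 16.42 to 18.75 in log2 in HS, 11.73 to 16.99 in TR and 9.38 to 17.69 in CL, and that of the lymphoid markers 11.63 to 12.66 on all arrays. Of the astrocyte and tanycyte markers, 9 of 13 had a probe, and those 9 were above background on all 12 arrays. Their summed signal was 19.51 to 20.07. Oligodendrocyte markers had a probe for 6 of 12, all 6 above background on all 12 arrays, with a sum of 19.45 to 19.73. In bulk tissue, fewer cells of a type and less RNA per cell cannot be told apart.

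Each gene is given by its brightest probe. A probe was tested if all 4 arrays of 1 group or more had it above background, which held for 41 of the 43 genes. MMP7 was above background on 0 of 12 arrays and ITGB3BP on 8, and neither was tested. Differences were tested with limma in a fit over the 12 arrays, and a gene was called differentially expressed (DE) at p under 0.05, a Benjamini-Hochberg adjusted p (FDR) under 0.15 over all probes tested and a fold change over 1.5, the limits in the study's methods. The captions of the study give a stricter FDR limit of 0.05, under which ITGA8 in HS vs. TR was the only member called.

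In each comparison 0 to 2 of the 41 tested matrix and integrin genes were called DE. A gene that was not called is not shown to be unchanged. In HS vs. CL, which asks what 24 h of heat changed, 0 of 41 were DE, where 3.58% of all 34920 probes tested were. HS vs. TR asks what changed between the end of heat and 24 h of recovery. There 2 of 41 were DE (4.88%), against 1.84% of all probes. These were the integrin subunit gene ITGA8 and the collagen gene COL4A6. Both were lower in HS, a direction in which 0.684% of all probes were DE. TR vs. CL asks what differed between recovered birds and birds never heated. Only ITGA8 was DE there, against 0.0945% of all probes, and it was higher in TR, as 0.0458% of all probes were. ITGA8 was not DE in HS vs. CL, where its mean was lower in HS. Each group enters a pair of comparisons, so the 3 results share arrays and are not independent.

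At p under 0.05 alone, 5 of 41 members passed in HS vs. CL (20.7% of all probes), 6 in HS vs. TR (16.4%) and 3 with TR vs. CL (7.79%). The 4 arrays of one group lay wholly above or below the 4 of the other for 2 members in HS vs. CL (11.9% of all probes), for 5 in HS vs. TR (11.3%) and for 2 with TR vs. CL (5.3%). As shares of the 41, the counts at p under 0.05 are 12.2%, 14.6% and 7.32%, and those without overlap 4.88%, 12.2% and 4.88%. Both were below the share of all probes in HS vs. CL and near it in the other comparisons.

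The 95% interval of the log2 change lay wholly within a 1.5-fold change either way for 21 members in HS vs. CL (59.6% of all probes), for 21 in HS vs. TR (63.2%) and for 19 with TR vs. CL (67.5%). For 14 members it did so in all 3 comparisons at the brightest probe: COL1A2, COL2A1, COL5A1, LAMB2, SPARC, SDC2, ITGA3, ITGA9, ITGB1, ITGB5, ITGB1BP3, MMP16, TIMP2 and TIMP3. For the others a change of 1.5-fold was not shown to be absent. Nor was it at dimmer probes of some of the 14. In HS vs. CL such probes gave -0.54 for ITGA3 (SE 0.22), -0.49 for MMP16 (SE 0.14) and -0.49 for COL5A1 (SE 0.26). Those of COL1A2, LAMB2 and ITGB5 gave -0.47 (SE 0.22), 0.12 (SE 0.39) and 0.10 (SE 0.29). Those of SDC2 and ITGB1BP3 gave 0.22 (SE 0.25) and 0.07 (SE 0.31), and those of COL2A1 ran from -0.18 (SE 0.26) to 0.20 (SE 0.22). The brightest probe of COL1A2 had values on only 2 CL arrays.

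The median log2 change of the 41 was -0.13 (HS vs. CL), -0.04 (HS vs. TR) and then -0.07 (TR vs. CL), beside -0.04, -0.04 and -0.01 over all probes. All probes include the dimmer probes of a gene. Over all named genes tested, each by its brightest probe as the members are, the medians were -0.007, -0.011 and -0.005. With an array left out, the first median of the 41 ran from -0.18 (without CL3) to -0.07 (without CL2 or CL4), the second from -0.07 (without TR4) to 0.05 (without TR1), and the last from -0.14 (without TR1) to -0.02 (without CL4). With array weights the first was -0.035, beside -0.036 over all probes. Where 3 changes of a gene or group are given together, they keep this order. In the first comparison 28 were lower and 13 higher in HS (68.3% lower, 56.7% of all probes), in the second 23 were lower and 18 higher (56.1% and 57.5%), and in the last 25 were lower and 16 higher in TR (61.0% and 51.4%). Apart from ITGA8 no member's log2 change exceeded 0.78 in either direction.

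**Figure D1:**
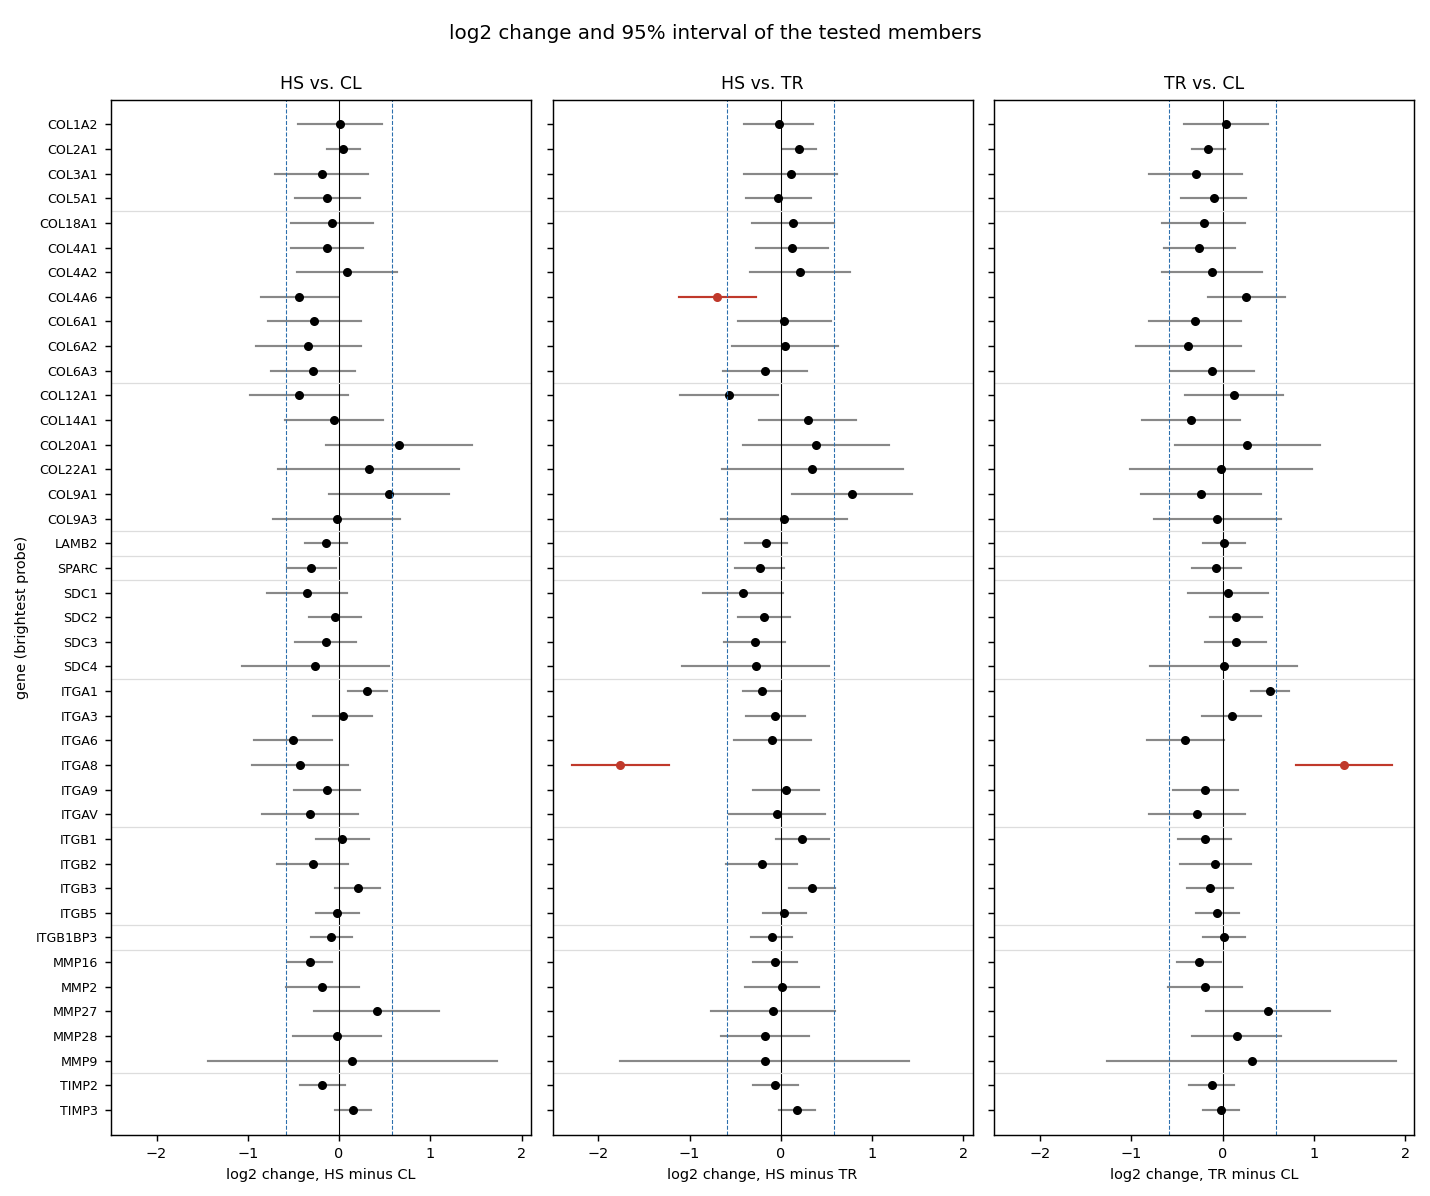
The log2 change of each of the 41 tested members in the 3 comparisons, with its 95% interval from limma (n = 4 arrays per group, 2 in CL for COL1A2). Genes are ordered by role, dashed lines mark a 1.5-fold change, and red marks the DE genes, which are ITGA8 and COL4A6 for HS vs. TR and only ITGA8 for TR vs. CL.

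Of the 6 integrin alpha subunits on the array, ITGA8 had the largest differences. It encodes the alpha 8 subunit, which pairs with beta 1 and binds matrix proteins that carry an arginine-glycine-aspartate motif. Its log2 signals were 5.66, 5.40, 5.95 and 5.90 on HS1 to HS4, 7.80, 7.35, 7.78 and 7.01 on TR1 to TR4, and 6.03, 6.81, 5.83 and 5.93 on CL1 to CL4. All 4 TR arrays lay above all HS and all CL arrays, while HS and CL overlapped.

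ITGA8 was 3.38-fold lower in HS than in TR (log2 change -1.76, SE 0.24, adjusted p = 0.0113 in limma) and 2.52-fold higher in TR than in CL (log2 change 1.33, SE 0.24, adjusted p = 0.137). Its log2 change in HS vs. CL was -0.43 (95% interval -0.95 to 0.10, adjusted p = 0.338). The lower level in HS than in TR was also called in each of the 12 fits that left out an array. The difference in TR vs. CL was called in only 1 of those 12, the fit without CL2, and its adjusted p in the others was 0.151 or more. With normexp background correction the log2 changes were -1.08 in HS vs. TR, still called, and 0.81 in TR vs. CL, not called. The TR vs. CL call was also lost with scaling to the 75th percentile, the methods' t-test and a fit of the 2 groups. ITGA8 had a single probe, above background on all 12 arrays but dim, with a mean log2 signal of 6.45 beside 6.46 for COL4A6. The lowest log2 signal above background was 4.58 on HS2 and 5.56 on HS4, where ITGA8 read 5.40 and 5.90. In HS vs. TR the array fold change that the study lists for ITGA8 has the sign and size found here. In TR vs. CL the study lists a negative fold change of nearly the same size, the opposite sign to that here. By qRT-PCR on the same samples, the study gives ITGA8 as significantly lower in HS than in TR, by a smaller fold than on its array. Its qRT-PCR value in TR vs. CL was also negative and not marked as significant.

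ITGA1, the alpha 1 subunit of a collagen and laminin receptor, was the member that came closest to a difference from CL in both heated groups. Its signals were 10.24, 10.38, 10.43 and 10.52 in HS, 10.66, 10.35, 10.70 and 10.69 in TR, and 10.06, 10.01, 10.13 and 10.13 in CL. Every HS and every TR array was above every CL array.

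The differences of ITGA1 were small. Against CL it had log2 changes of 0.31 in HS (SE 0.10, adjusted p = 0.110) and 0.52 in TR (SE 0.10, adjusted p = 0.144), both past the FDR limit and below a 1.5-fold change, so that neither was DE. A second and dimmer probe of ITGA1, above background on 10 arrays, gave -0.11 for HS and 0.78 for TR against CL (adjusted p = 0.944 and 0.801), so that the 2 probes had opposite signs in HS vs. CL.

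ITGA6, the alpha 6 subunit of laminin receptors, read 11.11, 11.14, 10.92 and 10.42 in HS, 11.32, 10.90, 11.01 and 10.74 in TR, and 11.40, 11.81, 11.19 and 11.21 in CL. All HS arrays were below all CL arrays, and TR lay between with overlap on both sides. Against CL the log2 change in HS was -0.51 (1.42-fold lower, SE 0.19, adjusted p = 0.171), past neither the FDR nor the fold limit, and its 3 probes gave values from -0.53 to -0.45. Without HS2, ITGA6 was called DE in that comparison.

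The other alpha subunits were ITGA3 (laminin receptors), ITGA9 and ITGAV (the alpha subunit of vitronectin and fibronectin receptors). None passed p under 0.05 in any comparison. Over all 6 alpha subunits the median log2 changes were -0.23, -0.08 and -0.04.

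None of the 4 beta subunits was DE. ITGB3, the beta 3 subunit, which pairs with ITGAV, was the one with the smallest p over the 3 groups. It read 11.15, 10.86, 11.01 and 11.17 in HS, 10.75, 10.85, 10.73 and 10.50 in TR, and 10.93, 10.96, 10.90 and 10.58 in CL. The HS arrays lay above the TR arrays by a narrow margin, with a log2 change of 0.34 (SE 0.11, adjusted p = 0.182), and CL overlapped with both.

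ITGB1, the common partner of most alpha subunits here, ITGB2, the beta subunit of leukocyte integrins, and ITGB5 ranged in log2 change from -0.29 to 0.23 in the HS comparisons. For ITGB1 and ITGB5 all 3 intervals of the brightest probe excluded a 1.5-fold change. For ITGB1, the partner of ITGA8, the interval in HS vs. TR was -0.05 to 0.52. All 5 probes of ITGB2 were lower in HS than in CL, with log2 changes from -0.73 to -0.15, none of them called.

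Of the symbols that begin like a beta subunit, 2 name other proteins. ITGB1BP3 is a nicotinamide riboside kinase once named for binding beta 1 integrin, and its signals lay between 17.24 and 17.63 on all 12 arrays, with log2 changes of -0.09, -0.10 and 0.01. ITGB3BP, a centromere protein, was the one too dim to test.

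**Figure D2:**
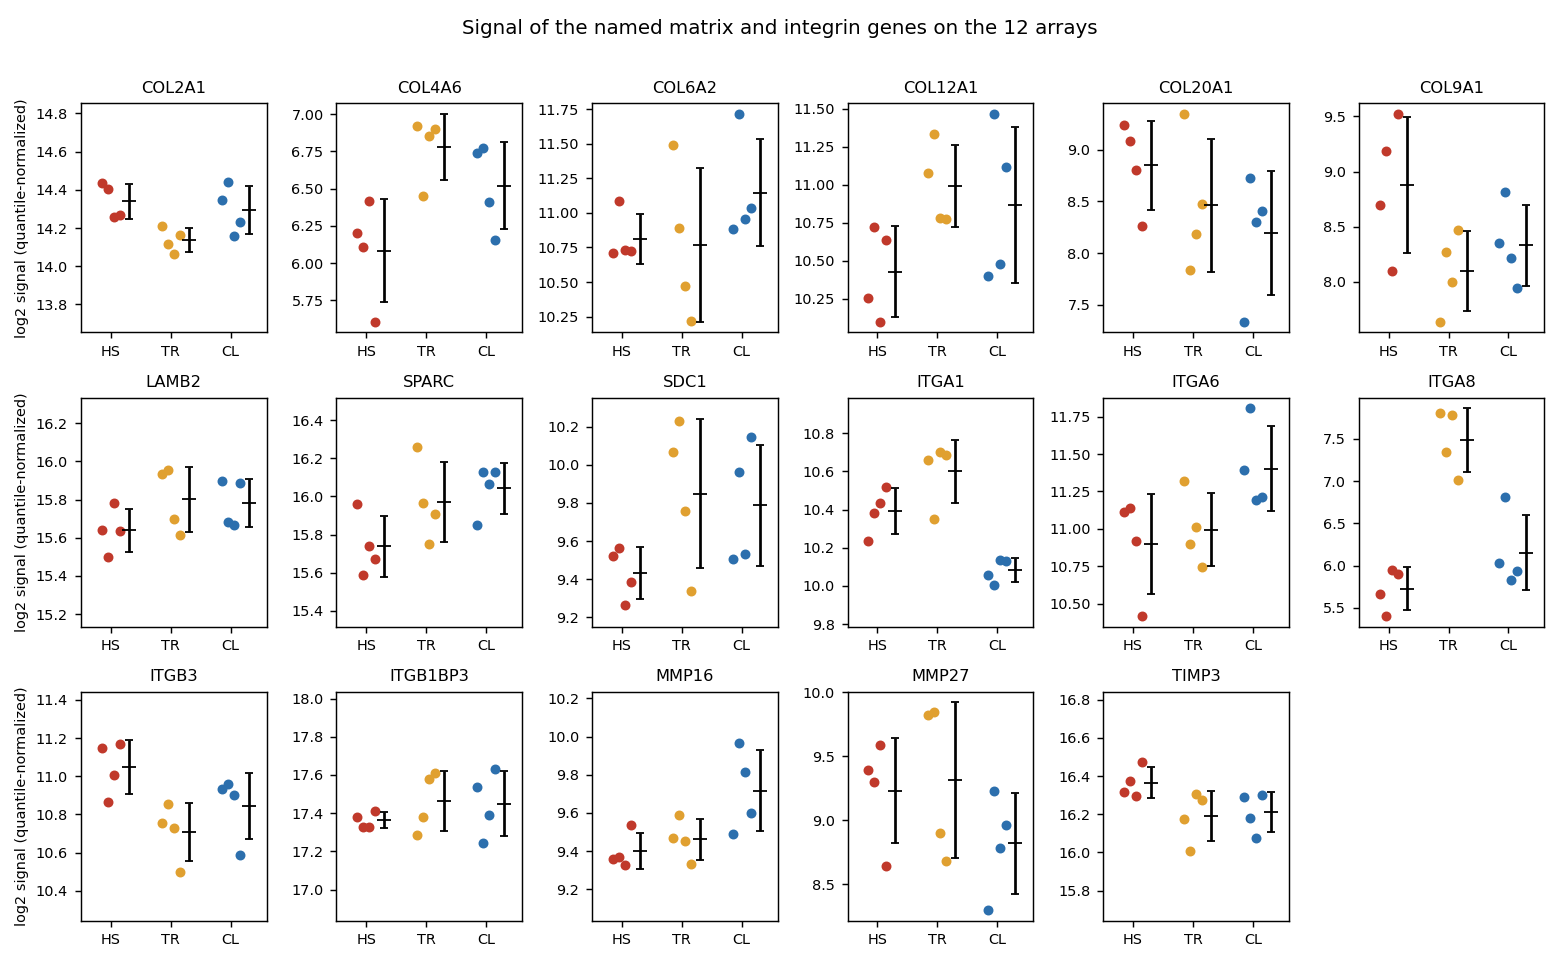
Log2 signals of the 17 members described with values, a point for each array, with the mean and SD of each group as a bar beside the points (n = 4, vertical axes of different ranges, each spanning at least 1.2). TR stands apart for ITGA8, CL for ITGA1, and most other genes overlap between groups.

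Collagens made up 17 of the 43 genes. COL4A6, which encodes an alpha chain of basement membrane collagen IV, was the only one called. Its signals were 6.20, 6.11, 6.42 and 5.60 on HS1 to HS4, 6.92, 6.45, 6.85 and 6.90 on TR1 to TR4, and 6.74, 6.77, 6.41 and 6.16 on CL1 to CL4. All HS arrays were below all TR arrays, with HS3 just below TR2, and CL overlapped with both.

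COL4A6 was 1.62-fold lower in HS than in TR (log2 change -0.70, SE 0.19, adjusted p = 0.124). It is a dim probe, its only one, and was not above background on HS4, the lowest array, so that the value there is not a measured level. Without HS4 the log2 change was -0.54 with an adjusted p of 0.238, and the call was also lost without HS2, TR1, TR3, TR4 or CL3 (adjusted p from 0.161 to 0.263). With normexp background correction the log2 change was -0.34, and with array weights -0.58, neither of them a 1.5-fold change. Its log2 change against CL was -0.44 in HS (adjusted p = 0.228) and 0.26 in TR.

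COL4A1 and COL4A2, the most widespread collagen IV chains, were higher in HS than in TR at their brightest probes (log2 changes 0.13 and 0.21). Over all their probes the values ran from -0.08 to 0.16 and from -0.17 to 0.21. For each gene 2 of 4 probes were lower in HS, and 0 were called. In HS vs. TR the log2 change of the 7 basement membrane and network collagens ran from -0.70 for COL4A6 to 0.21, with 5 of 7 higher in HS and a median of 0.04. Against CL 6 of the 7 were lower in HS, with a median of -0.27 and none called. Collagen VI, a microfibril former, had log2 changes of -0.27, -0.33 and -0.29 for its 3 chains COL6A1, COL6A2 and COL6A3 in that comparison, all 3 with adjusted p above 0.4.

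The values of COL6A2 show the spread behind these medians. They were 10.71, 11.09, 10.73 and 10.72 in HS, 11.49, 10.89, 10.47 and 10.21 in TR, and 10.88, 11.72, 10.95 and 11.03 in CL. TR1 and CL2 were the highest of the 12 arrays, above every other array of their own groups by more than the difference between group means, which was -0.38 in TR vs. CL (SE 0.26, adjusted p = 0.753).

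The same arrays were high for most of the large collagens. Of the 11 fibrillar, basement membrane and network collagens, all 11 were highest on TR1 among the TR arrays, and 9 of the 10 with a value on CL2 were highest there among the CL arrays. In HS, 6 of 11 were highest on HS2. The median deviation of the 11 from their own means over the arrays was 0.46 on TR1 and 0.51 on CL2, against -0.38 to -0.08 on the other TR arrays, -0.10 to 0.13 on the other CL arrays and -0.19 to 0.12 in HS. COL1A2, a chain of fibrillar collagen I, read 16.66 on TR1 and 15.86 to 16.02 on TR2 to TR4, and its values on CL1 and CL2 were left out as outlier spots.

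Without TR1 and CL2, a choice made after these values were seen, the median log2 change of the 11 collagens was -0.07, 0.24 and -0.21 in the 3 comparisons, where with all arrays it was -0.13, 0.04 and -0.16. In HS vs. TR 10 of the 11 were then higher in HS, where 7 were with all arrays, and 0 of the 11 were called, COL4A6 included.

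**Figure D3:**
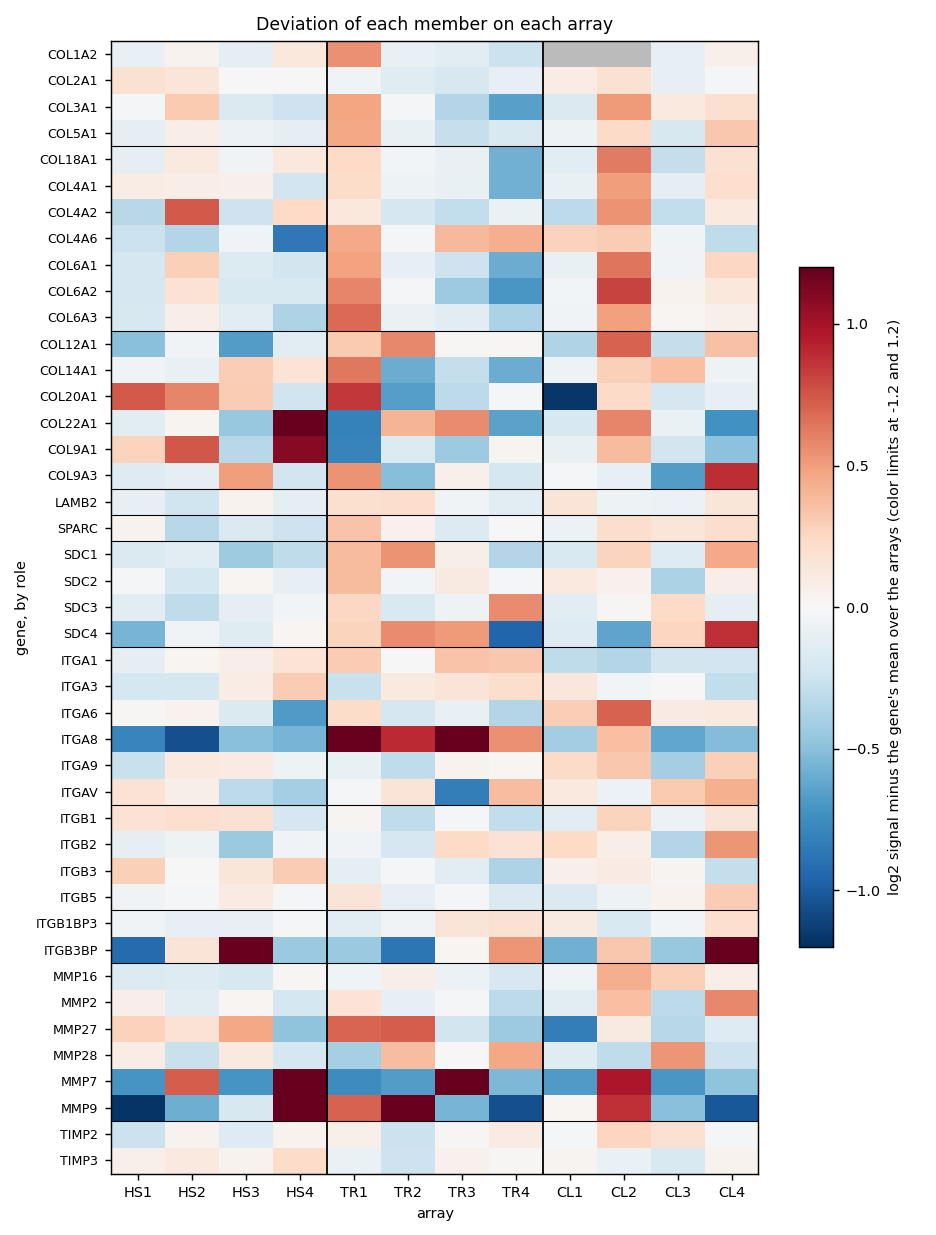
Log2 signal of each of the 43 members on each array minus the mean of that gene over the arrays, with genes by role and grey for the 2 values of COL1A2 left out. Red columns at TR1 and CL2 run through the collagens at the top, and the row of ITGA8 is red on all 4 TR arrays.

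Marker sums also differed on these arrays. None of the cell marker sums given here had both TR1 and CL2 above all other arrays. The hypothalamic neuropeptide sum was lowest of the 12 arrays on CL2 (9.38). On TR1 it was 13.34, above TR4 (11.73) and CL4 (11.90) and near CL3 (13.72) and TR3 (13.85). It was 16.99 on TR2, 17.69 on CL1 and 16.42 to 18.75 in HS. Of its 6 tested genes, 2 were called in HS vs. CL, both higher in HS, and their median log2 change was 1.49. The summed signal of the endothelial markers (10 of 19 with a probe, 9 above background on all 12 arrays) was 15.03 in log2 on CL2 and 14.67 to 14.91 on the others. That of the pericyte and smooth muscle markers (7 of 15) was 16.66 on TR1, the highest of all arrays, and 16.06 on CL2, within the range of the others. Striated muscle markers (14 of 21, MYOG above background on no array) summed to 17.58 on CL2, 16.03 on HS2 and 13.09 to 13.99 elsewhere, and erythroid markers (7 of 14) to 17.45 on CL2 and 14.33 to 16.60 elsewhere. The meningeal fibroblast sum (11 of 19) was 18.52 on TR1, the highest TR array, and 18.29 on CL2, below CL4. The choroid plexus sum (7 of 13) was 14.64 on TR1, the highest of all arrays, and 14.43 on CL2, below CL1 and CL3. The cartilage and bone sum (9 of 17) was 16.64 on TR2, 16.61 on CL2 and 16.51 on TR1, above all other arrays, the next being CL4 at 16.46. The sum of the collagen folding and crosslinking genes (7 of 27 with a probe) was 16.04 on TR1 and 15.87 on CL2. Both were above all other arrays, the next being CL3 at 15.81. SERPINH1, the collagen chaperone of the endoplasmic reticulum and a gene of that list, was also highest on TR1 (15.26), with CL2 next. The integrin adaptor sum (11 of 29) was 16.452 on CL2 and 16.384 on TR1, with CL4 next at 16.382. In the other matrix and adhesion lists TR1 and CL2 were not both above all other arrays. The part of these cell types, or of the dissected region, in the collagen values was not tested.

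**Figure D4:**
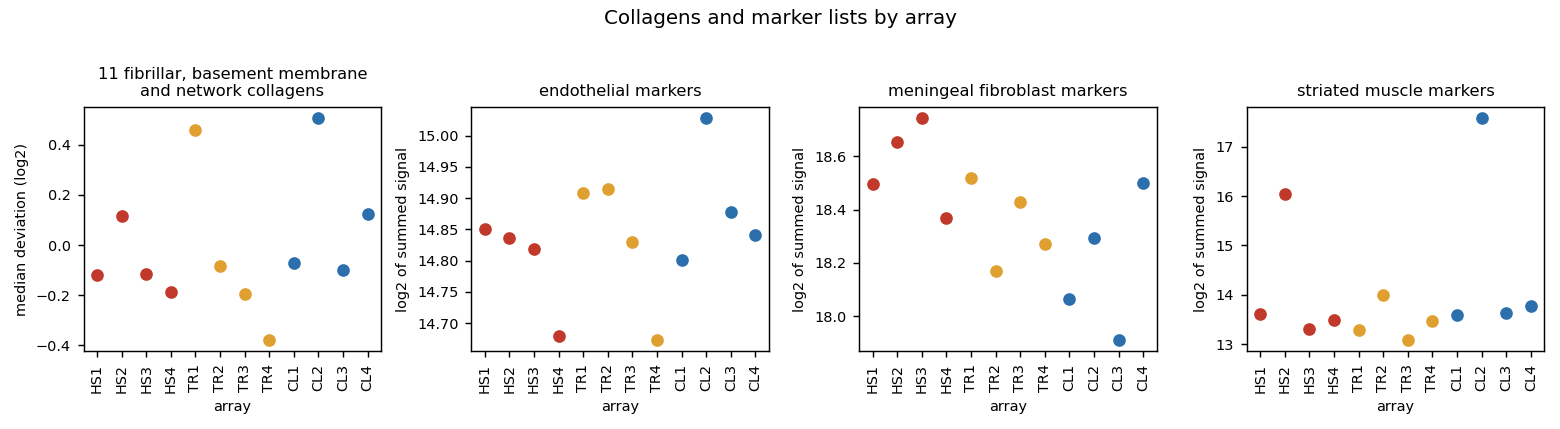
The median deviation of the 11 fibrillar, basement membrane and network collagens on each array, beside the log2 of the summed signal of endothelial, meningeal fibroblast and striated muscle markers (HS red, TR orange, CL blue). TR1 and CL2 are highest for the collagens, CL2 for the endothelial and striated muscle markers, and HS3 for the meningeal markers.

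Among the fibrillar collagens, COL2A1, the main collagen of cartilage, had the tightest values, 14.44, 14.40, 14.26 and 14.27 in HS, 14.21, 14.12, 14.06 and 14.16 in TR, and 14.34, 14.44, 14.16 and 14.23 in CL. HS lay above TR without overlap, but the log2 change was 0.20 (SE 0.08, adjusted p = 0.256). The interval at this brightest probe, from 0.02 to 0.39, excluded a 1.5-fold change. Dimmer tested probes gave 0.38 (SE 0.22), 0.36 (SE 0.23), 0.13 (SE 0.26) and -0.0002 (SE 0.27), none of them called, and did not all exclude it. COL1A2, COL3A1 and COL5A1 had log2 changes between -0.30 and 0.11 over the 3 comparisons, none past p under 0.05.

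The collagens outside these classes had some of the largest changes, with wide errors. COL9A1, a chain of a collagen that coats fibrils, read 8.70, 9.18, 8.10 and 9.52 in HS, 7.64, 8.27, 8.0 and 8.47 in TR, and 8.35, 8.82, 8.21 and 7.95 in CL. HS4 and HS2 were the highest of the 12 arrays and HS3 lay within the range of TR and CL. Its log2 change was 0.78 in HS vs. TR (SE 0.30, adjusted p = 0.233) and 0.54 in HS vs. CL (adjusted p = 0.326), and a dimmer probe, above background on 9 arrays, gave 0.76 and 0.69. COL9A3, another chain of the same collagen, had log2 changes of 0.03 and -0.03.

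COL20A1, of the same class of fibril-associated collagens, read 9.24, 9.09, 8.81 and 8.26 in HS, 9.35, 7.84, 8.19 and 8.48 in TR, and 7.34, 8.73, 8.31 and 8.41 in CL. All groups overlapped. CL1 was the lowest array and TR1 the highest. The log2 change in HS vs. CL was 0.66 (SE 0.36, adjusted p = 0.328).

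COL12A1, which binds fibrils of collagen I, read 10.26, 10.72, 10.10 and 10.64 in HS, 11.08, 11.34, 10.78 and 10.78 in TR, and 10.40, 11.47, 10.48 and 11.12 in CL. HS was below TR without overlap, with a log2 change of -0.56 (SE 0.24, adjusted p = 0.282), and with array weights COL12A1 was called there. A second probe of COL12A1, dimmer and also above background on all arrays, gave 0.05 in HS vs. TR, so that the probes of this gene did not show the same difference.

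LAMB2, the laminin beta 2 chain of vascular and synaptic basement membranes, had signals of 15.50 to 15.78 in HS, 15.61 to 15.96 in TR and 15.67 to 15.90 in CL. The groups overlapped, and log2 changes were -0.15, -0.16 and 0.02.

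SPARC, a secreted protein that binds collagen and is made in brain by glia and endothelium, read 15.96, 15.59, 15.74 and 15.67 in HS, 16.26, 15.97, 15.75 and 15.91 in TR, and 15.85, 16.13, 16.07 and 16.13 in CL. Of the HS arrays, 3 were below all CL arrays and HS1 was not. The HS mean differed by -0.30 in log2 from CL (SE 0.12, adjusted p = 0.189) and by -0.23 from TR (adjusted p = 0.367), with 3 probes between -0.33 and -0.28 against CL. The interval against CL, -0.57 to -0.04, excluded a 1.5-fold change.

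All 4 syndecans had lower means in HS than in CL and than in TR, and none passed p under 0.05. Their log2 changes ran from -0.35 to -0.04 against CL and from -0.41 to -0.18 against TR. SDC1, the syndecan of epithelia, read 9.52, 9.57, 9.26 and 9.39 in HS, 10.07, 10.23, 9.76 and 9.34 in TR, and 9.51, 9.96, 9.53 and 10.15 in CL. HS3 was the lowest array, and TR4, CL1 and CL3 lay among the HS arrays. The log2 change of SDC1 was -0.41 in HS vs. TR (SE 0.20, adjusted p = 0.327) and -0.35 in HS vs. CL (adjusted p = 0.338), with a second probe at -0.43 and -0.24. By contrast, the study lists SDC1 as significantly lower in HS than in CL, by array and by qRT-PCR. The 3 probes of SDC2 did not share a sign in either HS comparison.

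Of the 5 MMPs tested, MMP16, a membrane-anchored MMP of brain, had the smallest p over the groups. It read 9.36, 9.37, 9.33 and 9.54 in HS, 9.47, 9.59, 9.45 and 9.33 in TR, and 9.49, 9.97, 9.81 and 9.60 in CL. CL held the 3 highest values, and CL1 lay below HS4. HS differed from CL by -0.32 in log2 (SE 0.11, adjusted p = 0.140 in limma), past the FDR limit but not the fold limit. A dim second probe, above background on 10 arrays, gave -0.49 (adjusted p = 0.0904), also below the fold limit. In HS vs. TR the brightest probe gave -0.06 and the dim probe -0.47 (adjusted p = 0.822 and 0.145), so that the probes differed there.

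MMP27 read 9.39, 9.30, 9.59 and 8.64 in HS, 9.82, 9.85, 8.90 and 8.68 in TR, and 8.30, 9.23, 8.79 and 8.97 in CL. The groups overlapped. Against CL the log2 change was 0.41 for HS and 0.49 for TR (SE 0.31 for both, adjusted p = 0.481 and 0.725). MMP2, which cleaves collagen IV, MMP9 and MMP28 had log2 changes between -0.19 and 0.32 over the 3 comparisons. MMP9 ranged from 6.19 on HS1 to 9.26 on HS4, and its interval in HS vs. CL was -1.44 to 1.73.

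TIMP3, a matrix-bound inhibitor, was among the brightest and steadiest members, with 16.30 to 16.48 in HS, 16.01 to 16.30 in TR and 16.08 to 16.30 in CL. HS and TR touched at 16.30. Its log2 changes were 0.15, 0.17 and -0.02 (adjusted p of 0.350, 0.355 and 0.967). TIMP2, which also takes part in the activation of MMP2, had -0.18, -0.06 and -0.12.

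The array held 120 probes for the 43 genes, of which 111 were tested. Of the 111, 88 were lower in HS than in CL (79.3%, beside 56.7% of all probes), 67 were lower in HS than in TR (60.4% beside 57.5%), and 84 were lower in TR than in CL (75.7% beside 51.4%). Counted by probe, 0, 2 and 1 were called, the probes already given for ITGA8 and COL4A6. Probes of a gene report on the same transcripts and are not independent, and the collagens with many probes weigh most here, with COL3A1 at 10 and COL14A1 at 9.

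In HS vs. CL the median log2 change over all probes was -0.09 at mean signals under 8 and -0.01 at 14 or more, and over the member probes -0.34 and -0.13, with -0.10 in the range from 12 to 14. In TR vs. CL the member medians showed no such order, at -0.07 for the dimmest and -0.05 for the brightest probes with -0.24, -0.22 and -0.17 between, and those over all probes lay between -0.02 and 0.00. Of 28 members with several tested probes, 20 had a lower value in HS vs. CL at their dimmest than at their brightest probe (71.4%), as had 58.7% of 2637 other named genes. For HS vs. TR these shares were 67.9% and 64.2%, and for TR vs. CL 57.1% and 45.5%. For COL1A2, the 2 brightest probes gave 0.01 and 0.04 in HS vs. CL and the 3 dimmest -0.25, -0.34 and -0.47. The members had a wider span between their probes, with a median of 4.40 in log2 signal between brightest and dimmest against 2.37 in the other genes. The part of signal level in the lower member probes was not tested.

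**Figure D5:**
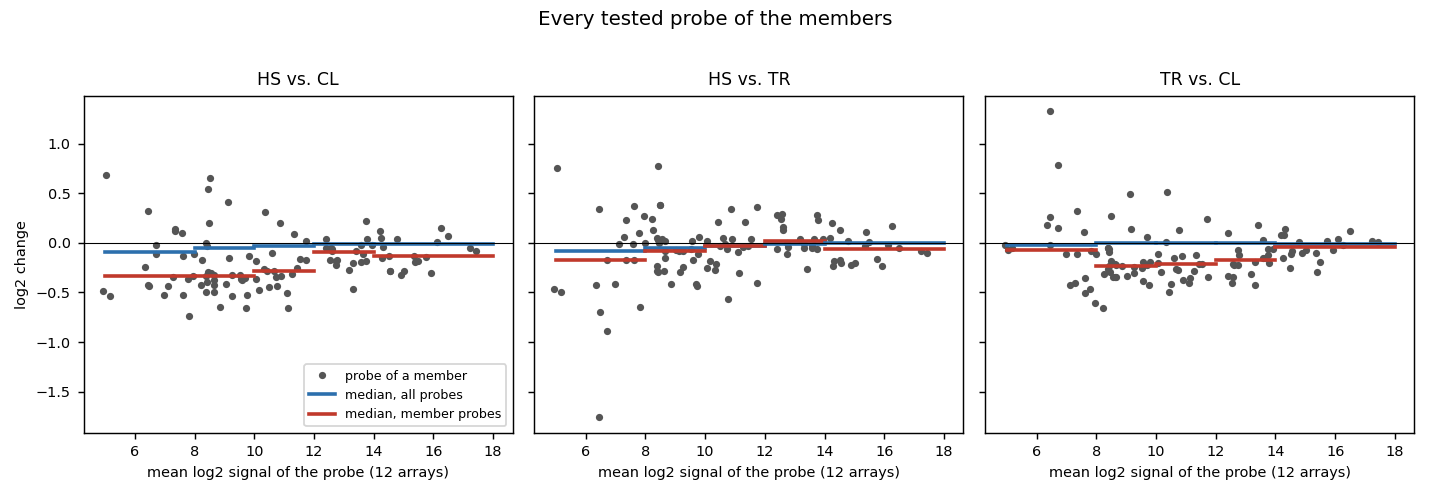
Log2 change of each of the 111 tested member probes against its mean log2 signal over the 12 arrays, with the median in 5 ranges of signal for all probes (blue) and for member probes (red). In HS vs. CL the red medians run from -0.34 at the dim end to -0.13 at the bright end, and the blue from -0.09 to -0.01.

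Other genes of matrix and adhesion were read from 8 lists that hold proteoglycans, basement membrane and matricellular proteins, collagen-processing enzymes, other proteases, integrin adaptors and TGF-beta signalling. Of 173 genes listed, 68 had a named probe and 64 were tested. The genes called numbered 1 in the first comparison and 3 in the second, all higher in HS, and 0 in TR vs. CL, where 1.85%, 1.16% and 0.0458% of all probes were called higher in the first-named group. None was called lower. At an FDR under 0.05 the count in HS vs. TR was 1.

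The gene called in both HS comparisons was SGCB, the beta sarcoglycan of the complex that links the cytoskeleton to laminin. It read 11.83, 11.88, 11.82 and 11.86 in HS, 11.21, 11.21, 11.10 and 11.10 in TR, and 10.75, 11.19, 11.24 and 11.31 in CL. All HS arrays were above all others. The log2 difference of HS was 0.73 from CL and 0.69 from TR (SE 0.11, adjusted p = 0.0159 and 0.0255).

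FMOD, which encodes the collagen-binding proteoglycan fibromodulin, read 13.89, 13.83, 13.59 and 14.39 in HS, 11.85, 12.13, 12.28 and 13.44 in TR, and 13.64, 12.28, 13.22 and 13.29 in CL. HS lay above TR without overlap, with a log2 change of 1.50 (SE 0.36, adjusted p = 0.0864). HAPLN1, a link protein of hyaluronan and proteoglycans, was called in HS vs. TR with a log2 change of 0.88 (SE 0.26, adjusted p = 0.141), although TR4 at 11.98 lay above HS3 at 11.92. SERPINH1 had log2 changes of 0.06, -0.01 and 0.07.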

How the data were processed

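RNA of 12 hypothalami was hybridized to 1-colour Agilent arrays. The authors deposited, for each spot, the Feature Extraction intensity after background subtraction, the median intensity of the spot and its local background, and marks for spots above background, outliers and saturation (0 saturated). A second deposited file holds log2 values that the authors had quantile-normalized. Of its 43606 entries, 65.6% lay within a root mean square difference of 0.1 of the normalized signals here at the spot of the same number, and 99.95% did so at a spot within 20 numbers.

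Intensities were taken to log2, 420 values of 220 probes from outlier spots were left out, and 43803 spots besides controls were quantile-normalized and averaged by probe. The filter on dim probes kept 34930 of 43603 probes, and 32229 were above background on all 12 arrays. The number of arrays limits the precision. The fit was made in R 4.3.3 with limma 3.58.1 (lmFit and eBayes, 3 groups, no covariates), and intervals are 95% intervals of that fit. The methods name no test for the arrays. Summaries and figures used Python 3.11.15, numpy 2.4.6, pandas 2.3.3 and matplotlib 3.10.9. On simulated data with 200 of 34736 probes changed by a log2 value of 1, the step called 80% (HS vs. CL), 81% (HS vs. TR) or 79% (TR vs. CL) of these. The simulated noise was independent between probes, and the changes of members besides ITGA8 were smaller than 1. These shares therefore do not give the power to detect such changes.

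Probes were named by accession through the annotation of assembly GRCg7b, which named 10185 probes, and 17961 probes with Ensembl transcript accessions were unnamed. Coordinates and sequences were not used here, and a planned search of promoters and proteins was not run. Lists were matched by exact symbol. The genes, lists and tests were chosen with earlier results of these data known. Named genes were those called, the 5 largest changes in each comparison, the smallest p over the groups in each role, and ITGA8 and SDC1, which the study names. Genes given beyond these were chosen after their values were seen. Alternatives were normalization by the 75th percentile, normexp correction of the background (offset 50), other filters and limits, outlier spots kept, the methods' t-test (named for qRT-PCR), 2-group fits, a replicate block, array weights, the deposited table, other choices of probe, and leaving out arrays. The arrays of a group are of separate birds.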

Additional observations from a re-analysis of the deposited data

Results flagged for a closer look

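Over the members described with values, 51 groups of 4 arrays were checked for an array far from the other 3, and 4 stood out, where chance gives about 1 in 20. COL4A6 read 6.45 on TR2, with the nearest TR array at 6.85. ITGA1 read 10.35 on TR2, with the next at 10.66, and without TR2 its log2 change in TR vs. CL was 0.60 and the gene was called (adjusted p = 0.105). COL6A2 read 11.09 on HS2, with the next HS array at 10.73. ITGB3 read 10.58 on CL4, with the next CL array at 10.90.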

How the results depend on the processing

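The count of members called was at most 3 in every setting run. In HS vs. CL it was 2 with no fold limit (ITGA1, MMP16) and 0 to 1 when an array was left out. In HS vs. TR it was 1, ITGA8 alone, with scaling to the 75th percentile, normexp, probes above background on all 12 arrays, the methods' t-test, the replicate block, only the 2 groups compared, FDR under 0.05, and without TR1 and CL2, and 1 to 2 with an array left out. The filter to probes above background on all 12 arrays left out COL4A6, above it on 11, so that its call could not be made there. With array weights the count was 2 with COL12A1 in place of COL4A6, and with no FDR limit 3 with COL9A1 added. In TR vs. CL it was 0 with that scaling, normexp, no filter on dim probes, the t-test, the replicate block, the 2 groups compared, FDR under 0.05, and without TR1 and CL2, 2 with no fold limit, and 0 to 1 with an array left out. ITGA8 in HS vs. TR was called in all 26 settings tried, with log2 changes from -1.92 to -1.08. The other matrix genes in HS vs. TR numbered 1 at FDR under 0.05. The median log2 change of the members moved in each setting by less than the SD of array medians within groups (0.143), and ran from -0.20 to -0.03 for HS vs. CL, from -0.07 to 0.05 for HS vs. TR and from -0.15 to -0.02 for TR vs. CL. That SD is larger than the medians themselves, so a shift below it does not show that a median is stable. The HS vs. TR median changed sign. Replicate numbers did not pair the arrays: deviations of same-numbered arrays correlated at r from -0.15 to 0.37, with 3 of 12 pairs over 0.1, and 0 of 12 arrays correlated best with their own number in both other groups. With the replicate block the adjusted p of ITGA8 was 0.0516 (HS vs. TR) and 0.250 (TR vs. CL). Scan day as a block could not be fitted, since CL alone was scanned on its day, and HS vs. TR lies within 1 scan day. Causes of these shifts were not tested. COL4A6 was not above background on HS4, which limits its value there.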
